A study of Mus musculus with 6 samples.

Results

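The 10 genes described here encode desmosome proteins and plakins, and they were taken by symbol from the 18152 genes of the deposited expression table. They are the desmosomal cadherins *Dsg2*, *Dsc2* and *Dsc3*, the armadillo proteins *Jup*, *Pkp1* and *Pkp3*, the plakins *Dsp*, *Evpl* and *Ppl*, and the membrane protein *Perp*. All 10 were found and all 10 passed the filter on low counts. RNA-seq was made from the inner enamel epithelium (IEE), the epithelial layer that gives rise to ameloblasts, of the mandibular first molar (MM1) at E18.5, shortly before birth. There were 3 libraries from *Kdf1 fl/fl* mice, labelled control and WT, and 3 of the *K14-Cre;Kdf1 fl/fl* genotype, labelled cKO with *Kdf1* deletion as the treatment. Both groups carried the floxed *Kdf1* allele on a C57BL/6J background, and only the *K14-Cre;Kdf1 fl/fl* group carried Cre, under the keratin K14 promoter, which is active in stratified epithelia beyond the tooth as well. By the study's methods the tissue was cut from sections by laser capture microdissection. The labels do not mention it and state a microgram of total RNA per library, so how much tissue beyond the layer was taken is not known. The labels number the libraries as biological replicates without saying whether each came from 1 animal or from a pool, so the p-values measure the spread between these libraries. The groups are called control and cKO from here on.

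Desmosomes are spot junctions that tie the keratin networks of neighbouring epithelial cells together. Desmogleins and desmocollins bridge the gap between the cells. Inside each cell, plakoglobin and the plakophilins bind the cadherin tails, and desmoplakin links them to keratin. Together these inner proteins form the desmosomal plaque. Periplakin and envoplakin are related plakins of stratified epithelia that also form part of the cornified envelope of the epidermis. In the enamel organ, desmosomes hold ameloblasts, the stratum intermedium and the stellate reticulum together.

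*Kdf1*, the targeted gene, had 52.5, 44.3 and 52.7 CPM (counts scaled to an equal library total, with TMM factors) in control replicates 1, 2 and 3. It had 1 read in all in the cKO libraries, at least 252-fold lower with 3 counts per library as the limit that a count of 0 allows. Library totals ran from 14713918 to 16675133 estimated counts, so that this limit was 0.182 to 0.198 CPM, for counting error only. Marker lists were read next, because laser capture can take cells from the border of the layer. The 8 epithelium markers had geometric means of 621, 479 and 632 CPM in the control libraries and 323, 316 and 479 CPM in the cKO libraries, with 8 of 8 lower on average (median log2 fold change −0.60). All 8 were present in every library, but dental mesenchyme markers were present as well. The latter had geometric means of 131, 364 and 184 CPM in control and 631, 470 and 395 CPM in cKO. Their summed level was 3739 to 20301 against 10631 to 12582 CPM. Of the 8, 5 were higher in cKO without overlap, as were 2053 of the 14131 genes tested, and *Twist1* passed the criterion used below. *Col1a1* and *Col1a2* overlapped and were lower on average in cKO, with log2 fold changes of −0.46 and −0.53. Geometric means of endothelium markers (29.9 to 34.5 against 35.6 to 91.5 CPM) and of immune markers (3.62 to 7.42 against 5.42 to 23.0 CPM) also lay towards the cKO libraries. The summed levels were 231 to 292 against 275 to 787 CPM and 26.6 to 53.4 against 39.6 to 172 CPM, and those of skeletal muscle were 1.76 to 4.4 against 2.11 to 4.72 CPM. None of the markers of mesenchyme, endothelium, immune cells or skeletal muscle was at 0 in any library. Keratinised epithelium markers had summed levels of 38.0 to 124 CPM in control and 12.6 to 20.8 CPM in cKO libraries. *Krt6a* made up most of the sum in control, with 108, 25.4 and 73.5 CPM, and it passed the criterion below and was lower. Of the other tested markers, *Krt1* was lower without overlap (log2 fold change −0.75), while *Krt10* (−0.26) and *Krtdap* (0.21) overlapped. *Krt6b* had at most 18 counts in any library and was at 0 in 2 cKO libraries. In bulk tissue, fewer epithelial cells and less RNA per epithelial cell cannot be told apart. The member genes were therefore also compared after scaling the libraries to the geometric mean of the epithelium markers. The log2 fold changes of these markers ran from −0.05 (*Epcam*) to −1.50 (*Krt14*), so the scale follows only their average. After this scaling *Epcam* was at 0.61 and *Krt14* at −0.88.

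**Figure D1:**
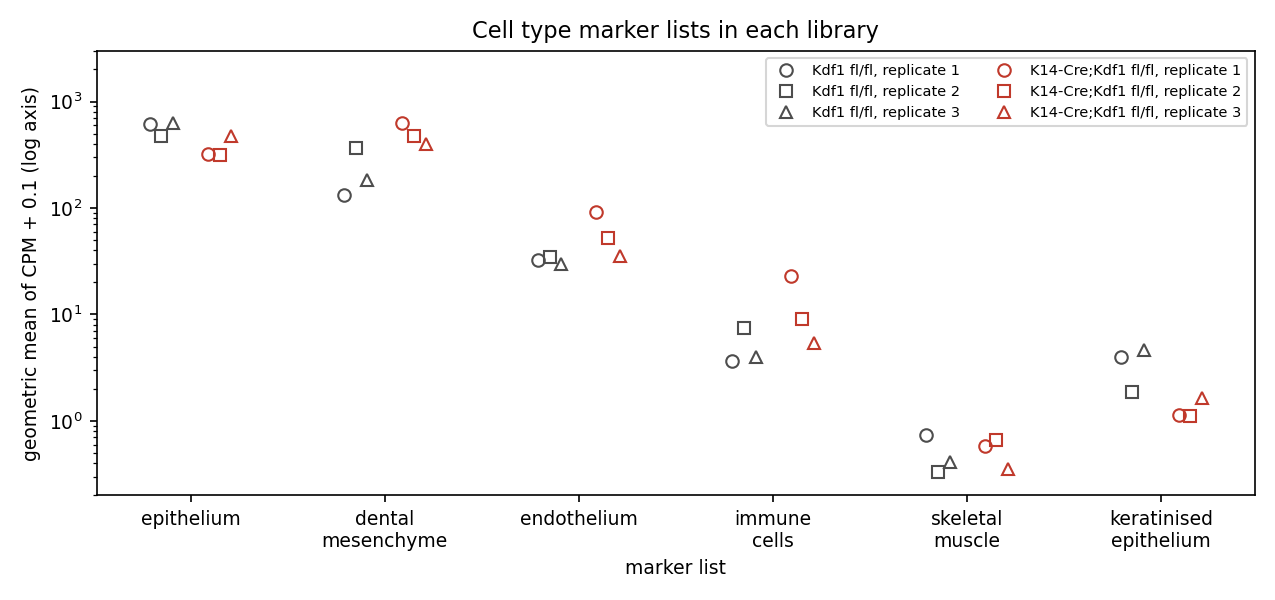
Geometric mean CPM (plus 0.1, log axis) of each cell type marker list in each library, with circles, squares and triangles for replicates 1, 2 and 3, grey for control (*Kdf1 fl/fl*) and red for cKO (*K14-Cre;Kdf1 fl/fl*). For epithelium the cKO libraries reach only the level of the lowest control library (316 to 479 against 479 to 632 CPM), and for dental mesenchyme they lie above the controls (395 to 631 against 131 to 364 CPM).

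Among the 10 genes, *Ppl*, *Evpl* and *Pkp1* were lower in the cKO libraries past the criterion given below. *Ppl* fell to 25.1% of its control mean, *Evpl* to 37.5% and *Pkp1* to 45.9%. *Dsp*, *Pkp3* and *Jup* stood at 55.2%, 56.2% and 58.4%, and *Dsg2*, *Dsc3* and *Dsc2* at 107%, 109% and 79.1%. The 3 armadillo and 3 plakin genes, whose proteins lie at the cytoplasmic side of the junction, are called plaque genes here. For all 6 every cKO library lay below every control library, and the groups overlapped for the 3 cadherins and for *Perp*. A difference between the plaque and the cadherin genes was not tested. Over all genes tested, 16.2% were lower without overlap.

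With a log2 fold change of at least 1 in either direction and a Benjamini-Hochberg adjusted p of at most 0.05 in edgeR's quasi-likelihood test, 3 of the 10 genes passed and were lower (*Ppl*, *Evpl* and *Pkp1*), and 0 were higher. Of the 14131 genes tested, 0.290% passed and were lower. At an unadjusted p under 0.05 in edgeR, 6 of the 10 were lower (11.6% of all genes) and 0 were higher (13.0% of all genes). Pairing by replicate number is not stated for these libraries and was assumed for a blocked fit. With the replicate number as a block the same 3 passed (1.92% of all genes), as they did in DESeq2 (1.88% of all genes). When the minimum fold was dropped, *Dsp*, *Pkp3* and *Jup* joined them, which made 6 of 10 in the blocked fit (4.44% of all genes) and 6 of 10 in DESeq2 (5.25% of all genes). This threshold was added after the data had been seen. Scaling to the epithelium markers left 1 of 10, *Ppl* (0.375% of all genes lower), and moved the median log2 fold change of the 10 genes from −0.80 to −0.15. The same scaling moved the median of all genes from −0.004 to 0.65. The count without the block also rested on single libraries. It was 0 of 10 when replicate 1 or 3 of control or replicate 1 or 2 of cKO was left out, and in each of these fits 1 gene of the whole table passed, *Kdf1*. It was 2 of 10 without control replicate 2 (0.104% of all genes) and 3 of 10 without cKO replicate 3 (0.945% of all genes).

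**Figure D2:**
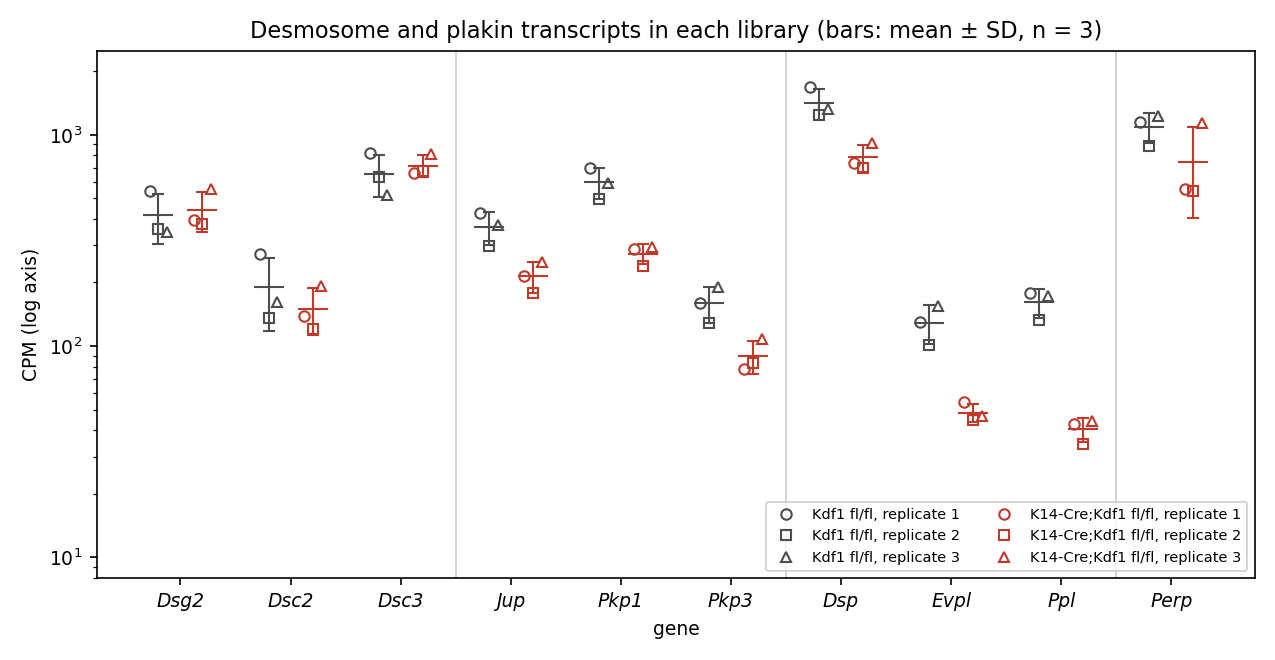
CPM (log axis) of the 10 genes in each library, from left to right cadherins, armadillo proteins, plakins and *Perp*, with circles, squares and triangles for replicates 1, 2 and 3 and bars for the mean ± SD (n = 3). The red cKO points lie under all grey control points for the 6 genes from *Jup* to *Ppl* and are mixed with them for *Dsg2*, *Dsc2*, *Dsc3* and *Perp*.

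Among the plakins, periplakin was the gene that differed most. *Ppl* (gene identifier 19041) had 179, 133 and 172 CPM in control replicates 1, 2 and 3 and 42.8, 34.5 and 44.2 CPM in the cKO replicates. The 2 groups were far apart, and the spread within each was small beside the gap. Its means were 161 ± 24.9 and 40.5 ± 5.26 CPM (SD, n = 3), a 3.99-fold decrease (log2 fold change −1.99, SE 0.16, adjusted p = 0.0247 in edgeR). It was the only one of the 10 genes still past the criterion on the epithelium scale, with −1.33 (SE 0.23, adjusted p = 0.0387 in edgeR). By replicate number, the log2 ratios were −2.07, −1.95 and −1.96, the closest agreement between pairs of the 10 genes. Without control replicate 1 or 3 its edgeR adjusted p was 0.144 or 0.101, and without cKO replicate 1 or 2 it was 0.0881 or 0.103, at log2 fold changes between −2.02 and −1.86.

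Envoplakin, which pairs with periplakin in the cornified envelope, was also lower. *Evpl* (14027) had 131, 102 and 155 CPM in control and 54.1, 44.8 and 46.5 CPM in cKO, 129 ± 26.8 against 48.5 ± 4.96 CPM (SD, n = 3). The 3 cKO values lay close together, far under the lowest control library. The log2 fold change was −1.41 (SE 0.18) with an adjusted p of 0.0498 in edgeR, just inside the threshold, and 0.00695 with the block. Scaled to the epithelium markers it was −0.72 with an adjusted p of 0.0625 in edgeR. Leaving out control replicate 1 or 3 gave edgeR adjusted p values of 0.162 and 0.210, and leaving out cKO replicate 1 or 2 gave 0.104 in either case.

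Desmoplakin, the obligate link between plaque and keratin, was the most abundant of the 3 plakins by far. *Dsp* (109620) had 1685, 1246 and 1319 CPM in control replicates and 732, 699 and 914 CPM in cKO replicates. The lowest control library was above the highest cKO library. The log2 fold change was −0.86 (SE 0.18, adjusted p = 0.0689 in edgeR), so that *Dsp* missed both parts of the criterion. With the replicate block the adjusted p was 0.0372, and in DESeq2 it was 0.000205. On the epithelium scale the value was −0.21 (SE 0.21, adjusted p = 0.40 in edgeR). A difference of *Dsp* from the average of the epithelium markers was thus not found, which does not show that they changed alike.

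Plakophilin 1, which clusters desmosomal proteins and is most abundant in stratified epithelia, was the armadillo gene past the criterion. *Pkp1* (18772) had 699, 496 and 595 CPM in control and 287, 239 and 295 CPM in cKO, with means of 596 ± 101 and 274 ± 30.3 CPM (SD, n = 3). The highest cKO library was well below the lowest control library. The log2 fold change was −1.12 (SE 0.17) with an adjusted p of 0.0498 in edgeR and 0.00952 with the block. After scaling to the epithelium markers it was −0.46 with an adjusted p of 0.128 in edgeR. *Pkp1* missed the threshold without any one of 5 libraries. Its edgeR adjusted p was 0.162, 0.0639 and 0.210 without control replicate 1, 2 or 3 and 0.104 without cKO replicate 1 or 2.

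*Pkp3* and *Jup* showed the same pattern with a smaller difference. *Pkp3* (56460), the most broadly expressed plakophilin of epithelia, had 159, 129 and 189.8 CPM in control and 78.2, 82.9 and 107 CPM in cKO. *Jup* (16480) encodes plakoglobin, a relative of β-catenin that sits in desmosomes and adherens junctions alike. It had 429, 297 and 373 CPM in control and 215, 177 and 249.5 CPM in cKO. For both genes the groups did not overlap, and the nearest libraries were control replicate 2 and cKO replicate 3. The log2 fold change of *Pkp3* was −0.83 (SE 0.19), with adjusted p values of 0.0726 in edgeR, 0.0146 with the block and 0.00272 in DESeq2. That of *Jup* was −0.78 (SE 0.19), with adjusted p values of 0.0808 in edgeR, 0.0221 with the block and 0.00402 in DESeq2. Scaled to the epithelium markers they were −0.18 and −0.12, with adjusted p values of 0.467 and 0.633 in edgeR.

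*Dsp* and *Jup* were lower in cKO without overlap, but neither passed the criterion in edgeR. They are the 2 member genes whose start regions are held in the RefSeq promoter sequences used here. The 250 bases before the annotated start of each are printed 5′ to 3′ on the gene's strand, from mouse build GRCm38.p6. Capitals mark GC boxes, searched as GGGCGG on both strands, so that a match on the other strand reads CCGCCC.
Dsp, chr13:38151044-38151293, plus strand: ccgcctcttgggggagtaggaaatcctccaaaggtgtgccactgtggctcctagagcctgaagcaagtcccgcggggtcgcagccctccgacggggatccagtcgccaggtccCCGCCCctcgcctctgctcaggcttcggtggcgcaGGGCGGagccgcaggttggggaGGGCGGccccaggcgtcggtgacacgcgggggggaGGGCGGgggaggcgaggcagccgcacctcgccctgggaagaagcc
Jup, chr11:100397791-100398040, minus strand: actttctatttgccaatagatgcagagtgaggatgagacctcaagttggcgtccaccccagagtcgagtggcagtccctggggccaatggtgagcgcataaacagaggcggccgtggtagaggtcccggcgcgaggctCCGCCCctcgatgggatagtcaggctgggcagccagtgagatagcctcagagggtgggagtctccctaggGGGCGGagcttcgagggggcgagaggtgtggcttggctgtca

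Both windows were rich in G and C, with 72.4% for *Dsp* and 62.0% for *Jup* against a median of 52.4% over 32851 windows of the same length. The *Dsp* window held 4 GC boxes, starting at positions −137, −102, −80 and −45 from the gene's start, and the *Jup* window held 2, at −112 and −42. At least 1 GC box was present in 32.7% of all windows. No match was found in either window to AACCGGTT, the palindromic grainyhead motif (0.116% of all windows), to AACNNGTT, its looser form, which contains the former (3.64%), or to the E-box CAGGTG (17.2%). The same held for the AP-1 motif TGANTCA (6.75%) and for TATAAA (12.4%), each searched on both strands. These are matches of letters and say nothing of binding.

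The 3 cadherin genes overlapped between the groups. *Dsg2* (13511), the desmoglein of simple and basal epithelia, had 544, 359 and 345 CPM in control and 397, 380.2 and 552 CPM in cKO. Its highest value was in cKO replicate 3 and its lowest in control replicate 3. *Dsc3* (13507), the desmocollin of basal layers, had 816, 631 and 520.0 CPM against 659, 675 and 813 CPM. *Dsc2* (13506), the most widespread desmocollin, had 271, 135 and 162 CPM against 138, 119.9 and 192 CPM. No group lay wholly above or below the other for any of the 3. Log2 fold changes were 0.09 (SE 0.23, adjusted p = 0.836) for *Dsg2*, 0.13 (SE 0.19, adjusted p = 0.726) for *Dsc3* and −0.34 (SE 0.29, adjusted p = 0.507) for *Dsc2* in edgeR. By replicate number, the log2 ratio of *Dsg2* was −0.45, 0.08 and 0.68 in pairs 1, 2 and 3, that of *Dsc3* −0.31, 0.10 and 0.64, and that of *Dsc2* −0.97, −0.18 and 0.24. Each of these genes thus was lower in pair 1 and higher in pair 3. Leaving out 1 library turned the sign of each of them, and those values stand with the processing alternatives. On the epithelium scale all 3 were positive, at 0.72 (adjusted p = 0.0555), 0.76 (adjusted p = 0.0555) and 0.31 (adjusted p = 0.320) in edgeR, which missed the threshold.

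*Perp* (64058), a tetraspan protein that desmosomes need for full adhesion and that is a target of p63, varied most within the cKO group. It had 1154, 887 and 1223 CPM in control and 556, 540.1 and 1140.2 CPM in cKO. Replicates 1 and 2 of cKO were low, while replicate 3 lay within the control range. The log2 fold change was −0.55 (SE 0.31), with an adjusted p of 0.324 in edgeR and 0.111 with the block. Without cKO replicate 3 it was −0.97, with an adjusted p of 0.0482 in edgeR, which still missed the minimum fold. On the epithelium scale it was 0.04 (adjusted p = 0.875 in edgeR).

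The libraries took the same places for most of the genes. control replicate 1 was the highest of its group for 7 of 10 genes, and replicate 2 was the lowest for 8. Among cKO libraries, replicate 3 was the highest for 9 of 10 genes, and replicate 2 was the lowest for 8. The epithelium markers were also lowest in replicate 2 and highest in replicate 3 of that group, and the geometric mean of the dental mesenchyme markers was lowest in replicate 3. Within control, replicate 2 had the lowest epithelium and the highest mesenchyme markers. The part of these markers in the member genes' values was not tested beyond the epithelium scale. Paired by number, 10, 8 and 7 of the 10 genes were lower in the cKO library of pairs 1, 2 and 3, with median log2 ratios of −1.04, −0.73 and −0.56. The share of all genes lower in each pair was not determined. By the edgeR log2 fold change, 8 of the 10 genes and 7139 of all 14131 genes tested were lower on average.

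**Figure D3:**
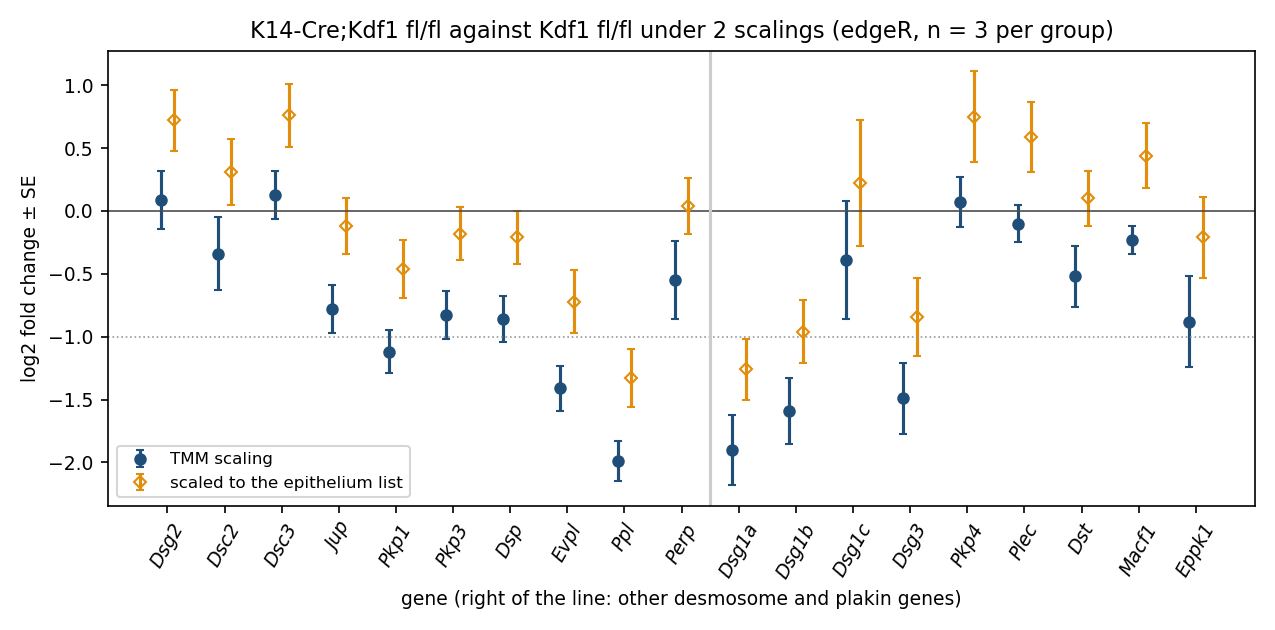
Log2 fold change (± SE, edgeR, n = 3 per group) of cKO against control for the 10 genes and, right of the grey line, other desmosome and plakin genes, with TMM scaling (blue circles) and with scaling to the epithelium markers (orange diamonds). *Ppl* stays below the dotted line at −1 on both scales (−1.99 and −1.33), as does *Dsg1a* (−1.90 and −1.26), while *Dsp*, *Jup*, *Pkp3* and *Perp* lie between −0.21 and 0.04 on the epithelium scale.

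Levels can be compared between genes only per transcript length, for which the deposited TPM values (transcripts scaled to an equal total per library) were used. In control the level was highest for *Perp* (1135 ± 126 TPM) and was 298 ± 49.5 TPM for *Dsp*, 231 ± 37.0 for *Pkp1*, 229 ± 57.8 for *Dsc3*, 192 ± 31.3 for *Jup*, 129.7 ± 36.4 for *Dsg2*, 105 ± 13.4 for *Pkp3* and 74.6 ± 28.5 for *Dsc2* (SD, n = 3). *Ppl* and *Evpl* were the scarcest at 45.8 ± 5.59 and 35.7 ± 5.20 TPM. Neighbours in this order overlapped, except *Perp* with *Dsp* and *Dsc2* with *Ppl*. In cKO *Perp* was again first (802 ± 321 TPM), but *Dsc3* came next at 259.5 ± 20.2 TPM and did not overlap with *Dsp* at 176 ± 24.3 TPM. *Dsg2* (143 ± 23.9 TPM), *Jup* (119 ± 19.7 TPM) and *Pkp1* (111 ± 14.8 TPM) followed and overlapped. *Pkp3* (61.9 ± 7.42 TPM) and *Dsc2* (61.2 ± 12.9 TPM) came after a gap, and *Evpl* (14.1 ± 2.37 TPM) and *Ppl* (12.04 ± 1.79 TPM) were last. *Ppl* thus changed places with *Evpl*, and *Pkp1* moved from the third place to the sixth by their means.

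The balance of cadherin to plaque transcripts does not depend on the scaling of a library. Summed TPM of *Dsg2*, *Dsc2* and *Dsc3* over that of the 6 plaque genes was 0.537, 0.506 and 0.380 in control and 0.883, 0.971 and 0.967 in cKO. In the latter, cadherin transcripts nearly equalled plaque transcripts in all 3 libraries. This ratio was put together with the results known and is given with no test. The 10 genes summed to 2829, 2205 and 2394 TPM in control and to 1624, 1418 and 2237 TPM in cKO.

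Ratios of transcripts within families were compared by two-sided exact permutation tests over 20 arrangements of the libraries, in which 3 against 3 cannot give a p below 0.10, adjusted over 5 ratios. *Ppl* per *Evpl* TPM was 1.40, 1.34 and 1.13 in control and 0.809, 0.788 and 0.973 in cKO. The groups did not overlap, with a log2 difference of −0.59 (exact p = 0.10, adjusted 0.25), and the ratio was below 1 in every cKO library. *Dsp* per *Jup* TPM was 1.57, 1.67 and 1.42 against 1.41, 1.57 and 1.497, a log2 difference of −0.06 (exact p = 0.50, adjusted 0.50). The groups overlapped for this ratio. *Pkp1* per *Pkp3* TPM was 2.56, 2.25 and 1.83 against 2.14, 1.68 and 1.6 (log2 difference −0.29, exact p = 0.20, adjusted 0.25). *Dsc3* per *Dsc2* TPM was 2.65, 4.12 and 2.84 against 4.21, 4.98 and 3.79 (log2 difference 0.45, exact p = 0.20, adjusted 0.25). The groups overlapped for the last 2 ratios, and *Dsc3* made up 72.5% to 80.4% of desmocollin TPM in control and 79.1% to 83.2% in cKO.

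**Figure D4:**
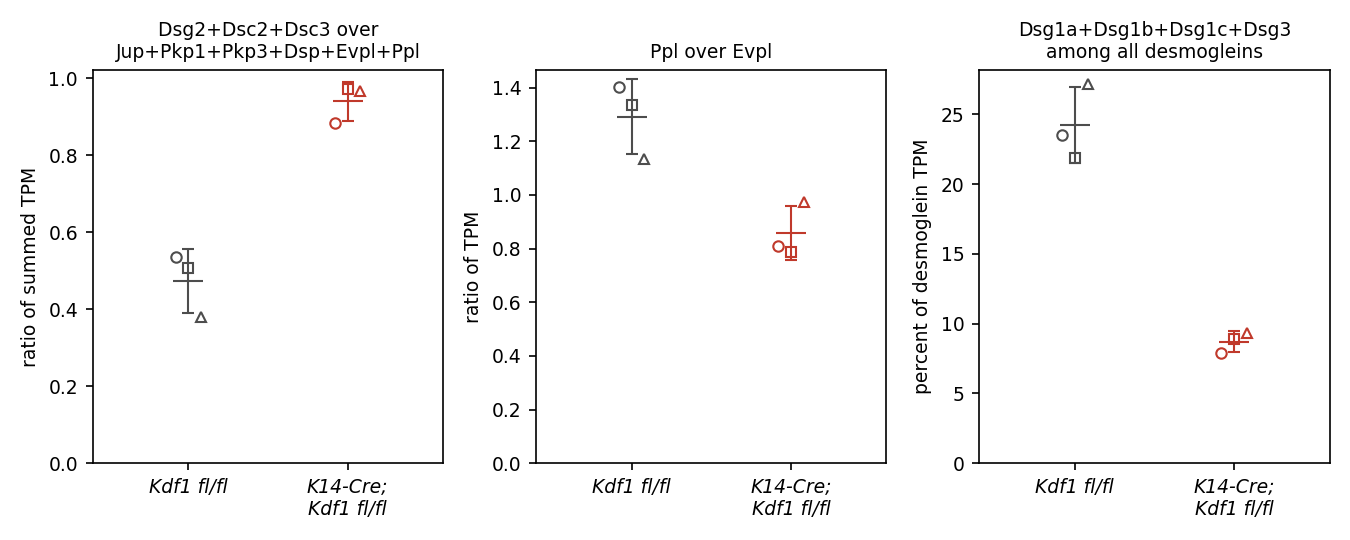
TPM ratios in each library (circles, squares and triangles for replicates 1, 2 and 3, grey for control, red for cKO, bars for the mean ± SD, n = 3), with cadherin over plaque TPM on the left, *Ppl* over *Evpl* in the middle and the percent of desmoglein TPM from *Dsg1a*, *Dsg1b*, *Dsg1c* and *Dsg3* on the right. The groups are separate in all 3 panels, with 0.380 to 0.537 against 0.883 to 0.971, 1.13 to 1.40 against 0.788 to 0.973, and 21.9% to 27.2% against 7.87% to 9.36%.

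Of 8 further desmosome genes, 7 were in the table and 5 were tested, with a median log2 fold change of −1.49. Of these 5, 1 passed the criterion and was lower (0.290% of all genes tested), and 3 with the replicate block (1.92%). *Dsg1a*, a desmoglein of differentiated layers, had 72.9, 40.1 and 58.4 CPM in control and 12.1, 13.9 and 19.8 CPM in cKO. It was the gene past the criterion, with −1.90 (SE 0.28, adjusted p = 0.0498 in edgeR), and on the epithelium scale with −1.26 (adjusted p = 0.0387 in edgeR). Its edgeR adjusted p was 0.162, 0.0582 and 0.210 without control replicate 1, 2 or 3, and 0.104 and 0.108 without cKO replicate 1 or 2. *Dsg1b* had 36.2, 23.5 and 30.3 CPM against 7.47, 9.502 and 12.9 CPM. *Dsg3*, the desmoglein of basal layers and the target of pemphigus vulgaris antibodies, had 26.4, 16.6 and 14.5 CPM against 6.96, 5.73 and 7.845 CPM. For all 3 desmogleins the groups did not overlap. *Dsg1b* had −1.59 (SE 0.26) with adjusted p values of 0.0526 in edgeR and 0.0155 with the block, and *Dsg3* had −1.49 (SE 0.28) with adjusted p values of 0.0637 and 0.0203. *Dsg1a*, *Dsg1b* and *Dsg1c* are near copies of each other, and the split of reads among them is uncertain.

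*Dsg2* took 76.5%, 78.1% and 72.8% of desmoglein TPM in control and 92.1%, 91.1% and 90.6% in cKO, a share given with no test. *Dsg2* per *Dsg3* TPM was 14.5, 15.2 and 16.69 against 40.1, 46.8 and 49.5, a log2 difference of 1.55 (exact permutation p = 0.10, adjusted 0.25). The spread within each group was small beside this gap. *Dsg1c* was low at 0.948 to 2.64 CPM in control libraries, with −0.39 (SE 0.47, adjusted p = 0.648 in edgeR). *Pkp4*, a plakophilin relative of adherens junctions, had 152 to 213 against 150.2 to 233 CPM, a difference of 0.07 on the log2 scale (SE 0.20, adjusted p = 0.844 in edgeR). *Dsc1* and *Pkp2* were too low to test, at 0.568 to 2.07 against 0.441 to 0.527 CPM and at 0.190 to 0.251 against 0.126 to 1.01 CPM.

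The desmosomal cadherin genes lie in 1 cluster, with the desmocollins at one end and the desmogleins at the other. In the RefSeq order *Dsc3*, *Dsc2*, *Dsc1*, *Dsg1c*, *Dsg1a*, *Dsg1b*, *Dsg4*, *Dsg3* and *Dsg2*, the genes at both ends (*Dsc3* at 0.13 and *Dsg2* at 0.09 on the log2 scale) were near 0. The 3 genes with the lowest values (*Dsg1a*, *Dsg1b* and *Dsg3*, at −1.90, −1.59 and −1.49) stood in its inner part. *Dsc2* and *Dsg1c*, also inside the cluster, had smaller differences of −0.34 and −0.39. *Dsg3* and *Dsg2* are neighbours, and their log2 fold changes were −1.49 and 0.09.

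**Figure D5:**
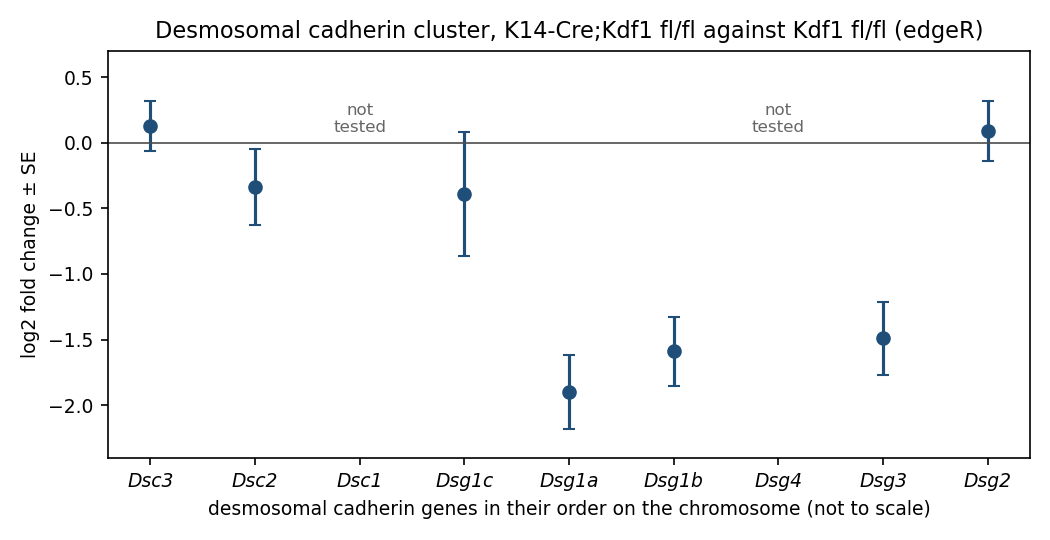
Log2 fold change (± SE, edgeR, n = 3 per group) of the desmosomal cadherin genes in their order on the chromosome, not to scale. The inner genes *Dsg1a*, *Dsg1b* and *Dsg3* lie at −1.90, −1.59 and −1.49, while *Dsc3* and *Dsg2* at the ends lie at 0.13 and 0.09. *Dsc2* and *Dsg1c*, also inside the cluster, lie at −0.34 and −0.39. *Dsc1* and *Dsg4* have no tested value.

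The other plakins differed less than *Ppl* and *Evpl*. Of 4 tested, 0 passed the criterion in edgeR's quasi-likelihood test, 0 with the block and 0 in DESeq2, and their median log2 fold change was −0.38. At an unadjusted p under 0.05 in edgeR, 1 was lower, *Eppk1* (11.6% of all genes). *Plec*, which encodes the linker of keratin to hemidesmosomes, had −0.10 (SE 0.15, adjusted p = 0.708). *Dst*, the hemidesmosomal and cytoskeletal relative, had −0.52 (SE 0.24, adjusted p = 0.237), and *Macf1*, a linker of actin and microtubules, had −0.23 (SE 0.11, adjusted p = 0.225) in edgeR. *Eppk1*, epiplakin, a keratin-binding plakin, had 46.3, 19.7 and 29.6 CPM against 20.4, 11.1 and 20.6 CPM. Its log2 fold change was −0.88 (SE 0.36, adjusted p = 0.191 in edgeR, 0.0333 with the block). A difference between *Ppl* and the other plakins was not tested.

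Partner genes were read from lists of keratins, cornified envelope proteins, adherens junction proteins and epithelial transcription factors. Together with the other desmosome and plakin genes these lists held 37 tested genes, of which 3 passed the criterion and were lower and 0 were higher, and 8 were lower with the block. Over all genes tested, 0.290% passed and were lower in edgeR, 1.92% with the block and 1.88% in DESeq2. Scaled to the epithelium markers, 2 were lower, *Dsg1a* and *Grhl3*, and 2 were higher, *Krt18* and *Ovol2*. On that scale 0.375% of all genes passed and were lower, and 11.4% were higher. Among 7 keratin partners (median log2 fold change −0.29), 0 passed in edgeR, where 3 were lower and 1 was higher at an unadjusted p under 0.05, against 11.6% and 13.0% of all genes. With the block or in DESeq2, 1 passed, *Krt14*. *Krt14*, a keratin of basal epithelial cells, had 1265, 1122 and 2315 CPM in control and 455, 399 and 811 CPM in cKO. Its log2 fold change was −1.50 (SE 0.37), with adjusted p values of 0.0842 in edgeR and 0.00685 with the block. *Krt17* had −0.83 (SE 0.25, adjusted p = 0.114 in edgeR and 0.0401 with the block). *Krt18*, a keratin of simple epithelia, differed in the other direction, with 62.1, 38.4 and 47.1 CPM against 89.9, 89.7 and 95.5 CPM. It did not overlap between the groups, and its log2 fold change was 0.90 (SE 0.18), with adjusted p values of 0.0656 in edgeR and 0.0210 with the block. It passed the criterion as higher on the epithelium scale, with 1.58 (SE 0.25, adjusted p = 0.0382 in edgeR). *Krt5* and *Krt14* also belong to the epithelium markers.

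Of 12 cornified envelope genes, 9 were in the table and 3 were tested. Of these 0 passed in edgeR and 1, *Tgm1*, with the block or in DESeq2, and *Tgm1* was the 1 gene lower at an unadjusted p under 0.05. *Tgm1*, the transglutaminase that cross-links envoplakin and periplakin, had 24.6, 12.5 and 23.9 CPM in control and 9.11, 7.17 and 9.49 CPM in cKO. The groups did not overlap, and its log2 fold change was −1.24 (SE 0.29), with adjusted p values of 0.0777 in edgeR and 0.0198 with the block. *Kazn*, which encodes the periplakin-binding protein kazrin, had −0.06 (SE 0.13, adjusted p = 0.790), and *Lor*, loricrin, stood at 2.31 to 3.59 CPM with 0.08 (SE 0.29, adjusted p = 0.891) in edgeR.

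Among 9 adherens junction genes (median −0.22), 1 passed and was lower in edgeR, against 0.290% of all genes tested. *Cdh1*, E-cadherin, had 852, 649.9 and 1028 CPM in control and 265, 281 and 349.8 CPM in cKO, and differed by −1.50 on the log2 scale (SE 0.21, adjusted p = 0.0498 in edgeR). Against the epithelium markers it was −0.84 (adjusted p = 0.0427 in edgeR), under the minimum fold. Its edgeR adjusted p was 0.162, 0.0582 and 0.210 without control replicate 1, 2 or 3 and 0.104 without cKO replicate 1 or 2. *Nectin4* had −1.0 (SE 0.16, adjusted p = 0.0526 in edgeR). With the block it had −0.98 (adjusted p = 0.0142), under the minimum fold. *Nectin1* had −0.66 (SE 0.20, adjusted p = 0.114 in edgeR). *Nectin4* and *Nectin1* encode nectins, cell adhesion molecules of adherens junctions. Of 9 epithelial transcription factors (median −0.46), 1 passed and was lower in edgeR, against the same 0.290%. *Grhl3*, a grainyhead factor of barrier formation, had 16.1, 12.1 and 10.2 CPM against 1.33, 0.944 and 0.989 CPM, with −3.55 (SE 0.30, adjusted p = 0.0247) and, on the epithelium scale, −2.88 (adjusted p = 0.0352) in edgeR. Without control replicate 1 or 3 its edgeR adjusted p was 0.144 or 0.101, and without cKO replicate 1 or 2 it was 0.0881 or 0.103. *Ovol1* had −1.32 (SE 0.32), with adjusted p values of 0.0808 in edgeR and 0.0256 with the block.

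Genes outside the 10 were ranked by the Euclidean distance between their log2 CPM, centred on the gene's mean, and the mean centred profile of the 10 genes over the 6 libraries. The nearest were *Ywhah*, an adaptor that binds phosphorylated proteins (distance 0.0887), *Nectin3*, a nectin (0.0991), *Crybg1* (0.146), *Mfsd6* (0.164) and *Tmem221* (0.188). *Ywhah* had 569, 384 and 482 CPM in control and 269, 232 and 336 CPM in cKO. Of the 10 genes themselves, *Jup* (0.114) and *Dsp* (0.181) were the closest to the mean profile, and *Dsc3* (1.19), *Dsg2* (1.11) and *Ppl* (1.51) were the farthest. The mean profile is made of these 10 genes, *Jup* included, and the distances carry no direction. By edgeR log2 fold change, *Ppl* (−1.99) was lower than *Jup* (−0.78), and *Dsc3* (0.13) and *Dsg2* (0.09) were higher.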

How the data were processed

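RNA-seq was made of IEE at E18.5, laser-captured by the study's methods (the labels do not mention this), and the libraries (n = 3 per group) were grouped by their labels. The deposited estimated counts were made by the authors and give unnormalised reads per gene. They were rounded, since 10.9% to 11.5% of them were fractional in each library. The deposited TPM are the authors' values scaled by transcript length and library, used here only for levels between genes and ratios. The deposited FPKM values, which the authors scaled by length and library size, and the authors' group means were not used. The submitters' processing notes name BWA 0.7.12, Picard 2.6.0 and StringTie without role or order. The genome build, annotation and strand setting are not given in the sources used here, and reads of overlapping genes could be shared.

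In R 4.3.3, edgeR 4.0.16 was used with filterByExpr (14131 of 18152 genes kept), TMM factors of 0.950 to 1.03 and the robust quasi-likelihood F-test with Benjamini-Hochberg adjustment over all genes tested. The criterion, taken from the study's methods, was a log2 fold change of 1 or more in size together with an adjusted p no higher than 0.05. The biological coefficient of variation was 25.4%. Each sentence with an adjusted p refers to this test unless it names the block (the replicate number as a term in edgeR), DESeq2 1.42.0 or the epithelium scale (the same test with libraries scaled to 8 epithelium markers). Ratios were tested by exact permutation. Promoter windows were those of RefSeq on GRCm38.p6, matched by symbol for 2 of the 10 genes, and motifs were searched on both strands.

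Replicates differed from each other by 34.3 to 73.3 times the counting variance, so none was a duplicate. Deviations from the group mean correlated at 0.135, 0.324 and 0.499 between libraries of the same replicate number, all above the 0.1 taken as pairing. Control replicate 2 and cKO replicate 1 correlated at 0.144, also above 0.1, while the other unmatched pairs were negative. The pairing is thus uncertain, and the paper's text gives no litter for these libraries. The alternatives were DESeq2, other scalings and filters, limma-voom and limma on log2(TPM + 1) and log2(TPM + 0.1) (limma 3.58.1), the block and the omission of each library. The fits were tested on simulated counts.

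The 10 genes, the partner and marker lists and the ratios were chosen with earlier results of these data known. Named genes were the 10 members, *Kdf1*, every tested gene among other desmosome genes and plakins, up to 3 genes with the smallest adjusted p of each further partner list, and the 5 nearest profiles. One gene that this rule names is not reported here. *Krt1*, *Krt5*, *Krt6a*, *Krt6b*, *Krt10*, *Krtdap*, *Epcam*, *Col1a1*, *Col1a2*, *Twist1*, *Ovol2*, *Dsc1* and *Pkp2* were named after their values were seen.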

Additional observations from a re-analysis of the deposited data

How the results depend on the processing

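The number of the 10 genes lower past the criterion was 3. It was 1 with DESeq2 size factors in edgeR, library size alone, the epithelium scale, at least 10 counts in every library, limma-voom and log2(TPM + 1), and 6 without a minimum fold in the blocked fit or in DESeq2. Of all genes tested, 41 were lower past the criterion in the main fit. In the settings that left 1 member gene, 6, 7, 53, 5, 6 and 22 of all genes were lower, in the order given. It was 3 in the remaining fits that kept all libraries, the replicate block among them. Leaving out 1 library gave 0 to 3. Of the 37 partner genes, 3 passed. The count was 8 in DESeq2 and with the replicate block in edgeR or DESeq2, 5 with no filter, and 1 with DESeq2 size factors, library size alone, at least 10 counts or limma-voom, and it was 0 to 6 with 1 library left out. There were 2 lower and 2 higher on the epithelium scale. Over all genes the count was 61, and 6 to 1663 in the alternatives that kept all libraries.

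On the epithelium scale the log2 fold change turned positive for *Dsc2* (0.31), *Perp* (0.04), *Dsg1c* (0.22), *Plec* (0.59), *Dst* (0.10), *Macf1* (0.44) and *Kazn* (0.62). The median of all genes was 0.65 on this scale and −0.004 in the main fit. With 1 library left out, values of both signs were found for *Dsg2* (−0.08 to 0.34), *Dsc2* (−0.54 to 0.02), *Dsc3* (−0.02 to 0.32), *Dsg1c* (−0.67 to 0.11), *Pkp4* (−0.05 to 0.24), *Kazn* (−0.13 to 0.05) and *Lor* (−0.01 to 0.27). *Ppl*, *Evpl*, *Dsp*, *Pkp1*, *Pkp3* and *Jup* were negative in every alternative. *Dsp* per *Jup* had no clear direction, with rounded log2 differences of −0.0 without control replicate 2 and −0.02 without cKO replicate 1. The other ratios kept their direction in every alternative. With the replicate block the exact sign-flip permutation p of the 5 ratios was 0.25 to 0.50, where 0.25 is the smallest possible. Apart from the calls given beside each gene, the block changed no call of a named gene. The causes of the changes between settings were not tested.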
